A study of Mus musculus with 12 samples.

Results

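Genes that differed between interferon β (IFNβ) and control at 12 h were described in mouse bone marrow monocytes, with the weight on genes outside the classic interferon-stimulated, MHC and chemokine families. The members are all 1388 genes of the authors' deposited table for this comparison, of 2038 genes listed in any of the 3 deposited tables used. By gene name 212 belong to the classic families and 1176 lie outside them. The split rests on names alone, so interferon-induced genes and relatives of the families under other names can remain outside. Of the genes outside, 90 carry predicted names. Monocytes were sorted from mouse bone marrow with magnetic beads and cultured with 20 ng/mL M-CSF in every group, so the controls carry M-CSF too. The IFNβ group received 100 U of IFNβ in addition. Each group has 3 libraries at 12 h (replicates 1 to 3), and a further 3 libraries each at 24 h bring the series to 12. Strain and age of the mice are not used here, and the labels do not tie the replicates to separate animals; the p-values rest on the spread between libraries, which may be technical.

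Type I interferons signal through the IFNAR receptor and the kinases JAK1 and TYK2 to transcription factors that bind interferon response elements in promoters, and they are best known for antiviral genes. Monocytes and macrophages both make and answer IFNβ. M-CSF acts through the receptor tyrosine kinase CSF1R and drives monocytes toward macrophages, cells that take up lipids and apoptotic cells, remodel matrix and secrete growth factors.

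All levels below are the authors' normalized counts, compared between samples for 1 gene and not between genes, since they are not per length. Log2 differences are IFNβ minus control of log2(normalized count + 1), given with their standard error; both come from limma, a linear model fitted over the listed genes, and adjusted p-values are Benjamini-Hochberg values from that fit. The 12 h table holds only genes that the authors called, that is, with their adjusted p below 0.05 and their log2 fold change at or beyond 1 in either direction. A gene that is not listed therefore has no value here, which does not mean that its level stayed the same. The depth of the libraries is unknown. The replicate number pairs the libraries, and log2 ratios within a pair are given as a description.

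Among the 18 fixed monocyte and macrophage markers Ly6c2 and Fcgr1 rose, and Mertk had a log2 difference of -1.19 ± 0.35 that did not pass limma (adjusted p = 0.0648) but did with the replicate block (0.0071). Ly6c2, a surface marker of classical monocytes, stood at 23657, 23908 and 23140.3 in controls and 208663, 167616 and 163254 with IFNβ. Among markers of other cells, 7 of 14 dendritic cell genes were listed. Xcr1, Dpp4 and Bst2 rose and Flt3, Cd209a, Itgax and Irf4 fell. Of 15 endothelial and stromal genes Kdr, Flt1 and Cdh5 rose, and of 16 T and NK cell genes Gzma and Gzmb, which encode granzymes. Of 12 B cell genes Blk was listed as lower (limma adjusted p = 0.0907, and 0.0982 with the block). None of 18 neutrophil and none of 10 mast cell and basophil genes was listed, so their levels were not analysed here. In such bulk samples fewer cells of a type and less RNA per cell cannot be told apart, and the part of other cell types in the results below was not tested.

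IFNβ raised more genes than it lowered, and outside the classic families the 2 directions were closer in number. The authors called 1388 of an implied 15661 tested genes (8.86%), 892 higher (5.70%) and 496 lower (3.17%). Inside the classic families 199 genes were higher and 13 lower (93.9% higher). Outside them 693 were higher and 483 lower (58.9% higher). The median log2 fold change in the authors' deposited table was 1.85 for the raised and -1.49 for the lowered genes outside the families, against 3.3 for the raised genes inside. Of the 1176 genes outside, 302 rose and 142 fell by at least 2 on the log2 scale. The listed shares of gene lists given below are over all their members, tested or not, and so not on the base of the 8.86%.

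The replicates bore these directions out with few exceptions. All 3 pairs moved the same way in 1167 of the 1176 genes, and the 2 groups did not overlap in 1154 (98.3% of all listed genes did not overlap). Limma passed 1002 of them, 638 higher and 364 lower (87.1% of all listed genes passed, and 88.6% with the replicate block). Since the table lists genes chosen for small p-values, these shares describe the list and are no independent test of it. Of the 174 genes that did not pass, 119 were lowered genes, and 111 had a mean over the 6 libraries at or below 52.9, the level that bounds the lowest 25% of the table. Without IFNβ replicate 1 the lowered genes that passed numbered 229. When the libraries were instead scaled to their median ratio over the listed genes, which sets rises and falls to balance by construction, differences moved by a median of -1.25, and 208 genes passed as higher and 472 as lower. Rises under about that size changed sign under this scaling, and such genes are given for each group below. Rises a little above that size kept their sign but nearly vanished, as for Grn (1.27 to 0.02) and Cp (1.31 to 0.064). A rise whose value under this scaling is not given below may not pass there. Of the 175 genes that the naming rule picks, 15 changed sign and a further 40 kept their direction but did not pass, Nos2, Edn1, Plau, Nrp1 and Il12rb1 among them. Members just inside the authors' limits were Pxk, with 2320, 2508 and 2115 in controls and 4605, 4594 and 4692 with IFNβ, and Tfdp2, with 889.8, 937.6 and 801.8 in controls and 409, 435 and 469 with IFNβ.

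**Figure D1:**
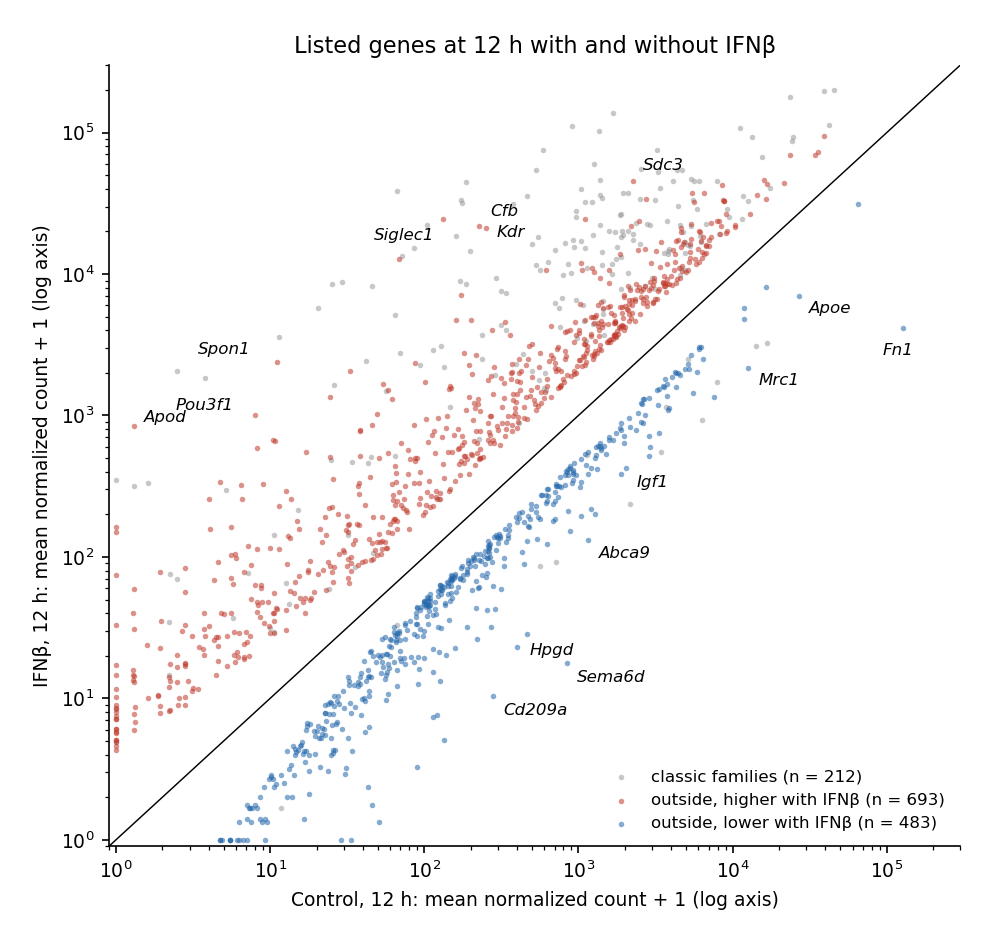
Mean normalized count + 1 of every listed gene in controls (x axis, log) and with IFNβ (y axis, log) at 12 h, 3 libraries a group; grey points are the 212 genes of the classic families, red and blue points the 693 raised and 483 lowered genes outside them, and the line marks equal levels. No point lies near the line because the table lists called genes only; Siglec1, Kdr and Cfb sit far above it and Fn1, Sema6d and Cd209a far below.

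The promoters of the raised genes outside the classic families were searched for the interferon response element, beside those of the lowered genes, the classic families and all genes. The element searched was GAAA, any 2 letters and GAAA again, on both strands, within the 300 bases from 250 before to 50 after each gene start in RefSeq (GRCm38.p6). It was present in 51 of 689 promoters of 534 raised genes outside the families (7.4%), in 10 of 477 promoters of 364 lowered genes (2.10%) and in 69 of 204 promoters of 158 raised classic genes (33.8%). Among all 32851 promoters in RefSeq's list, 1131 held it (3.44%). The gamma-activated element (TTC, any 3 letters and GAA) was present in 7.11% of raised, 6.50% of lowered and 8.30% of all promoters, and 9 promoters of raised genes held both. A match is a description of letters and not a bound site. Stretches of 50 bases before a RefSeq start of 4 raised genes and 1 lowered gene are shown, 5′ to 3′ on the gene's strand. They are examples of genes described below that carry the element and were picked after the values were seen. Edn1, Fbn1, Mmp13 and Cybb, also described below, carry it too, Cybb before a start inside the gene. In each, capitals mark the element or its reverse complement.
Clec2d: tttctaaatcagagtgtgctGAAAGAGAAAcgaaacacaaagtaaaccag
Fcgr4: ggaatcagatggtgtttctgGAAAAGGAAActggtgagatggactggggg
Slc25a22: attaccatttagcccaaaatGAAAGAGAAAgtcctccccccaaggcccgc
Plk2: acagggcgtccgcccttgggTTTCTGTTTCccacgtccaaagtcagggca
Clec4b1: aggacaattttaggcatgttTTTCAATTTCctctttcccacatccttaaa
In the order printed these lie at chr6:129180406-129180455 (plus strand), chr1:171018833-171018882 (plus), chr7:141435425-141435474 (minus), chr13:110394805-110394854 (plus) and chr6:123049867-123049916 (plus) of GRCm38.p6. The Slc25a22 stretch lies before a start inside the gene, which spans 141429749 to 141437874. Clec2d and Slc25a22 carry the same 10 letters, and Clec4b1, which holds a match as well, was lowered.

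Lectins of the cell surface moved in both directions, and 2 of them were among the largest changes outside the classic families. Of 78 C-type lectin and siglec genes 6 rose and 7 fell (16.7% listed). All 13 passed limma, as did 87.1% of all listed genes, and Clec4e changed sign under the median-ratio scaling. Siglec1, the sialic acid receptor of macrophages also called CD169, stood at 137, 36.4 and 29.6 in control replicates 1 to 3 and at 20636, 6882 and 10708 with IFNβ. Every IFNβ library was above every control, by a log2 difference of 7.73 ± 0.50 (limma adjusted p = 2.47e-07), and replicate 1 was the highest in both groups. Klrk1, which encodes the NK cell receptor NKG2D, rose from 116, 149 and 168 to 1632, 1589 and 1429, by 3.43 ± 0.21 (adjusted p = 1.33e-07). Clec2d, a ligand of the receptor Klrb1b, rose by 1.67 ± 0.18, but at 0.41 under the median-ratio scaling it did not pass (limma adjusted p = 0.55). Klrb1b itself fell from 498, 575 and 604 to 149, 205 and 198, a log2 difference of -1.61 ± 0.22.

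The lowered lectins were led by the Cd209 cluster and the mannose receptor. Cd209a, the mouse relative of the dendritic cell lectin DC-SIGN, stood at 264, 266 and 303 in controls and at 1.95, 14 and 12 with IFNβ, a log2 difference of -5.07 ± 0.54 (limma adjusted p = 2.57e-05). Cd209d was listed at 23.9, 35.2 and 38.3 in controls and at 0 in all 3 IFNβ libraries. Cd209a, Cd209e and Cd209d follow each other on chromosome 8 between 3743395 and 3878548 (GRCm38.p6), and reads of such close paralogs may have been split or shared in counting. Mrc1, the mannose receptor of alternatively activated macrophages, fell from 11104, 10381 and 16291 to 964, 1889.6 and 3640.1, a log2 difference of -2.71 ± 0.37, and its highest IFNβ library stayed below its lowest control. Clec4b1 had a difference of -1.87 ± 0.29.

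An activating Fc receptor and several SLAM receptors rose, and the inhibitory and the neonatal Fc receptors fell. Of 41 Fc, SLAM and related immune receptors 10 rose and 3 fell (31.7% listed), all past limma. Lilrb4a and Slamf6 changed sign under the median-ratio scaling. Fcgr4, an activating receptor for IgG, rose from 295, 387 and 405 to 2038, 1951 and 1477, by 2.33 ± 0.20 (limma adjusted p = 4.37e-06). Slamf9 rose from 28.9, 21.0 and 20.7 to 651, 470.2 and 398, by 4.36 ± 0.30. Slamf7, a receptor of macrophages and lymphocytes that binds itself on other cells, rose from 5809.6, 4333 and 3795 to 24481, 14477 and 20729, by 2.09 ± 0.22. The groups were far apart for all 3 genes.

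Fcgrt and Fcgr2b went down. Fcgrt, the neonatal Fc receptor that returns IgG and albumin from endosomes to the surface, fell from 1916, 1531 and 2177 to 344, 399 and 407, a log2 difference of -2.28 ± 0.19 (limma adjusted p = 2.97e-06). Fcgr2b, the inhibitory IgG receptor, fell from 16416, 13852 and 19074 to 7739.7, 8032 and 8349, a log2 difference of -1.02 ± 0.17. The third lowered member, Trem2, a lipid receptor of tissue macrophages, had a difference of -0.97 ± 0.20 (limma adjusted p = 0.00714), which did not pass without IFNβ replicate 1 (0.0861), without IFNβ replicate 3 (0.0818) or without a variance trend (0.0695).

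Receptors for cytokines and growth factors rose more often than they fell, as did the genes outside the classic families as a whole (58.9% higher). Of 50 such receptors 9 rose and 4 fell (26.0% listed), and 12 passed limma, while Il1r1 did not. None changed sign under the median-ratio scaling. Il15ra, which presents IL-15 to neighbouring cells, stood at 302, 269 and 271 in controls and 2330.5, 2382 and 1838 with IFNβ, a difference of 2.95 ± 0.18 (limma adjusted p = 1.71e-07). Il2rg, the γ chain shared by the receptors of IL-2, IL-15 and related cytokines, rose from 4440.0, 3856 and 4550.1 to 20095, 15770.0 and 15693, by 2.0 ± 0.16. Il12rb1, a chain of the IL-12 and IL-23 receptors, rose by 2.21 ± 0.39. Met, the receptor of hepatocyte growth factor, rose from 651, 576 and 436 to 2513, 1928 and 2212, by 2.01 ± 0.20.

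The lowered receptors included those for FLT3 ligand and for the other class of interferon. Flt3, a receptor of dendritic cell precursors, fell from 1213, 1064 and 1076 to 304, 480.2 and 551, a log2 difference of -1.37 ± 0.23. Ifngr1, the ligand-binding chain of the IFNγ receptor, fell from 12954, 11155 and 11519 to 5325, 6117 and 5830.4, by 1.04 ± 0.15 (limma adjusted p = 0.000424). Both genes were lower in every pair, which follows from the naming rule.

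Receptors of vascular growth factors rose, by very different amounts. Kdr, the main VEGF receptor of endothelial cells, stood at 245, 253 and 253 in controls and at 23936, 13825 and 25482 with IFNβ, a difference of 6.34 ± 0.22 (limma adjusted p = 1.09e-09). Flt1, another VEGF receptor that monocytes use, rose from 252, 394 and 424 to 3692, 4146 and 3320.4, by 3.41 ± 0.21. Nrp1, a co-receptor for VEGF and semaphorins, rose from 3531, 2873 and 2905 to 11513, 8309.7 and 8191, by 1.58 ± 0.18. Cdh5, the cadherin of endothelial junctions, was at 2.99, 0.784 and 4.44 in controls and 37.0, 51.0 and 30.0 with IFNβ. Kdr, Flt1 and Cdh5 are the 3 listed members of the endothelial and stromal markers; the others, Pecam1 and Tek among them, have no value in the table.

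Of 44 peptide hormone and neuropeptide genes 4 rose and 1 fell (11.4% listed). All passed limma, and some of the rises started near 0. Apod, a secreted lipid-binding lipocalin, was listed at 0, 0.906 and 0 in controls and at 979, 787 and 763 with IFNβ (log2 difference 9.40 ± 0.39, limma adjusted p = 4.87e-09; its size depends on the pseudocount and was 11.92 with one of 0.1). Sct, the gut hormone secretin, was at 0 in all 3 controls and at 172, 172 and 142 with IFNβ. Hap1, a partner of huntingtin in vesicle transport, was at 0 in all 3 controls and at 155, 174 and 118 with IFNβ. In all, 24 raised genes outside the families were listed at 0 in every control, and 13 lowered genes at 0 in every IFNβ library; no fold is given for them. Edn1, the vasoconstrictor endothelin 1, rose from 0, 9.86 and 8.81 to 123.5, 109 and 121. Retnla, a resistin-like protein of alternatively activated macrophages, fell from 23.9, 52.0 and 323 to 0.248, 6.0 and 6.0, a log2 difference of -4.26 ± 0.88 (limma adjusted p = 0.00646), and its controls spread widely, with replicate 3 the highest. It did not pass without IFNβ replicate 1 (0.139), without IFNβ replicate 3 (0.0544) or without a variance trend (0.069).

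The other growth factors moved in both directions. Of 40 growth factors 7 rose and 4 fell (27.5% listed). Limma passed 9 but not Angptl4 and Pdgfb, and Csf1 changed sign under the median-ratio scaling. Igf1, a trophic factor of maturing macrophages, fell from 2567, 1543 and 2037 to 555, 303 and 419, a log2 difference of -2.28 ± 0.25 (limma adjusted p = 3.42e-05), and the log2 ratios of the 3 pairs were near each other, at -2.21, -2.34 and -2.28. Osm, a cytokine of the IL-6 family, rose from 421, 446 and 452 to 1253, 1138 and 1023, by 1.37 ± 0.18. Grn, which encodes the lysosomal and secreted progranulin, rose from 41145, 34835 and 42136 to 108979, 92000.4 and 85042, by 1.27 ± 0.19. Under the median-ratio scaling Grn was at 0.02 and did not pass. Nrg1, a ligand of ERBB receptors, had a difference of -1.06 ± 0.16. Of 10 TNF ligands outside the families Tnfsf15 and Tnfsf8 rose, by 3.57 ± 0.42 and 3.11 ± 0.29.

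**Figure D2:**
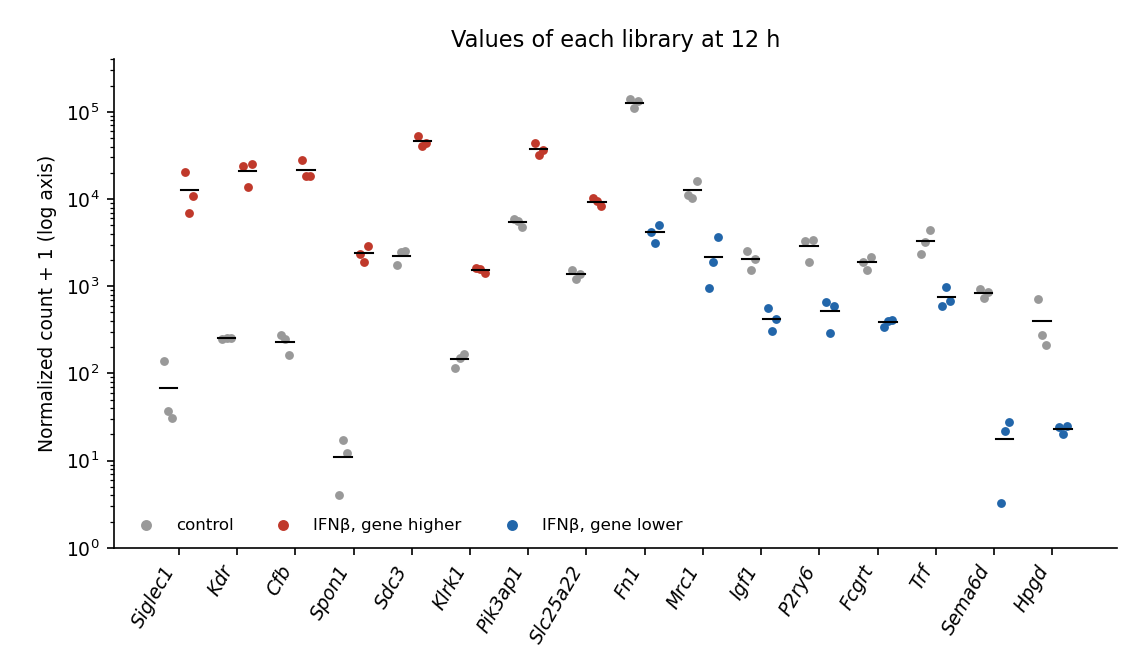
Normalized count + 1 (y axis, log) of each library at 12 h for 16 genes, 8 raised and 8 lowered; grey points are the 3 controls, coloured points the 3 IFNβ libraries and bars their means. The 2 groups do not overlap for any of these genes, as in 98.3% of all listed genes, and named genes were required not to overlap. The controls of Siglec1, Spon1 and Hpgd spread the most, with replicate 1 the highest in Siglec1 and Hpgd and the lowest in Spon1.

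G protein-coupled receptors (29.3% listed) rose more often than they fell, as did all genes outside the classic families together (58.9% higher). Of 58 such receptors outside the chemokine family 13 rose and 4 fell, all 17 past limma, and Gpr141 and Gpr84 changed sign under the median-ratio scaling. Aplnr, the apelin receptor, rose from 34.9, 47.8 and 29.2 to 930.3, 743 and 657, by 4.36 ± 0.28 (limma adjusted p = 2e-07). Lpar1, a receptor of lysophosphatidic acid, rose from 6.98, 7.15 and 0.680 to 82.3, 96.0 and 134, whereas Lpar5, another receptor of this lipid, fell from 1056, 829 and 859.9 to 421, 343 and 398. The 2 receptors thus had log2 differences of 4.43 ± 0.58 and -1.24 ± 0.19. P2ry6, the receptor for extracellular UDP, fell from 3331, 1899 and 3402 to 651, 289 and 599.5, a log2 difference of -2.52 ± 0.31. Gpr183, a receptor for oxysterols, had a difference of -1.41 ± 0.17, and Ch25h, the enzyme that makes their precursor, was listed as higher.

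Matrix, adhesion and guidance genes were mixed, with falls in more of them than rises. Of 57 matrix and protease genes 4 rose and 6 fell (17.5% listed), and of 48 adhesion genes 4 rose and 4 fell (16.7%). Of 54 semaphorins, plexins, ephrins and their receptors 3 rose and 10 fell (24.1%). Limma passed 9, 6 and 8 genes of these lists in turn, and 10 of the guidance genes passed with the replicate block. Itga4 and Itga5 changed sign under the median-ratio scaling. Fn1, which encodes fibronectin, fell from 141094, 109521 and 132541 to 4204, 3153 and 5082, a log2 difference of -4.96 ± 0.20 (limma adjusted p = 3.87e-09). Spon1, a secreted matrix protein of the spondin family, went from 2.99, 16.1 and 11.3 to 2328, 1877 and 2933, a difference of 7.95 ± 0.45, and Fbn1, the microfibril protein fibrillin 1, from 1.99, 10.6 and 15.9 to 606, 673 and 732. Fibronectin and these 2 matrix genes therefore moved in opposite directions.

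Proteases and their inhibitors also parted. Plau, which encodes urokinase, rose from 273, 374 and 331 to 1157, 1345 and 1459.8, by 2.02 ± 0.20, and Mmp13, a collagenase, by 1.66 ± 0.25. Mmp12, the elastase of macrophages, fell from 274, 433 and 622 to 45, 107 and 111, a log2 difference of -2.35 ± 0.39. Timp2, an inhibitor of metalloproteinases, fell from 2466, 2578 and 2872 to 815, 886 and 972, a difference of -1.57 ± 0.16, and the paired log2 ratios were -1.60, -1.54 and -1.56. Sdc3, a heparan sulfate proteoglycan of the cell surface, rose from 1739.7, 2445 and 2568 to 53290.3, 40673 and 43454, by 4.36 ± 0.19 (limma adjusted p = 6.58e-09).

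Among the guidance genes above the lowest levels, a semaphorin fell and another rose. Sema6d fell from 936, 724 and 851 to 2.27, 21.0 and 27.0, a log2 difference of -6.04 ± 0.63 (limma adjusted p = 2.13e-05), and its IFNβ replicate 1 was the lowest. Sema4d, which binds plexin B receptors, rose from 10592, 8878 and 6369 to 42241, 27991 and 30246, by 1.97 ± 0.22. Efnb1, an ephrin ligand, had a difference of -1.74 ± 0.29. Of the integrins, the collagen-binding Itga1 fell from 6957, 5102 and 4662 to 1468, 1226 and 1644, a log2 difference of -1.93 ± 0.19, and Itgax, which encodes CD11c, from 586, 642 and 648 to 117, 104 and 145. Itgb3 had a difference of -1.20 ± 0.22.

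Among metabolic enzymes Nos2 and Ass1 rose, and Arg2 fell. Of 41 genes of arginine, NAD, nucleotide and related metabolism outside the families 10 rose and 3 fell (31.7% listed), and none changed sign under the median-ratio scaling, although Nos2 did not pass there. Nos2, the inducible nitric oxide synthase that burns arginine, rose from 3.98, 91 and 39.7 to 475, 1382 and 696, by 4.86 ± 0.80 (limma adjusted p = 0.00118), and replicate 2 was the highest in both groups. Ass1, which rebuilds arginine from citrulline, rose from 1962, 1604 and 2048 to 18296, 11090.5 and 12269, by 2.86 ± 0.20. Gch1, the first enzyme in the making of the cofactor of nitric oxide synthases, was listed as higher as well, with 517, 276 and 438 in controls and 2919, 2308 and 2263 with IFNβ.

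An arginase fell, and another arginase and an arginine carrier were listed as lower. Arg2, the mitochondrial arginase, fell from 823, 592 and 729 to 279, 388 and 287, a log2 difference of -1.17 ± 0.22 (limma adjusted p = 0.00309). Arg1, the cytosolic arginase, stood at 1249, 4677 and 16823 in controls and at 257, 1876 and 1946 with IFNβ, so that the groups overlapped although every pair was lower. Its log2 difference of -2.24 ± 0.85 did not pass limma (adjusted p = 0.242) and did with the replicate block (2.25e-04). Slc7a2, a carrier of arginine, had a difference of -1.32 ± 0.44, with a limma adjusted p of 0.128 without and 0.0016 with the block. Enpp1, an ectoenzyme that cleaves nucleotides and cGAMP, fell from 426, 329 and 632 to 101, 101 and 187.

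Other metabolic enzymes of this list rose. Acod1, which makes itaconate from a citric acid cycle intermediate, rose from 1175, 1194 and 755 to 15058, 10494 and 10066, by 3.52 ± 0.22 (limma adjusted p = 1.66e-07). Nt5c3, a pyrimidine nucleotidase, rose from 1094, 1357 and 1328 to 11101, 11108 and 9043, by 3.05 ± 0.16. Dck, the kinase that salvages deoxycytidine, was at 2606, 2554 and 2160.3 in controls and 18133.5, 12128 and 14191 with IFNβ. Nampt, the entry enzyme of NAD salvage, rose by 1.38 ± 0.15. The groups of these 4 genes did not overlap, as in 98.3% of all listed genes, and the naming rule required it of Acod1, Nt5c3 and Nampt.

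Lipid genes moved in both directions. Of 56 lipid and sterol genes 5 rose and 7 fell (21.4% listed), all past limma. Msr1 changed sign under the median-ratio scaling and did not pass without IFNβ replicate 1 (0.88, limma adjusted p = 0.0889). Apoe, the apolipoprotein that macrophages secrete with cholesterol, fell from 29292, 19705 and 31560.2 to 8341, 6307 and 6225, a log2 difference of -1.93 ± 0.21 (limma adjusted p = 2.74e-05). Abca1, the pump that loads cholesterol onto apolipoproteins, fell from 1276, 973 and 885 to 419.8, 339 and 253, a difference of -1.64 ± 0.23. Npc2, the sterol carrier of lysosomes, rose from 23294, 21449 and 25648 to 77563, 68339.8 and 62502, by 1.56 ± 0.17. Lpl, lipoprotein lipase, rose by 1.34 ± 0.24. Of the fatty acid binding proteins Fabp3 rose by 2.46 ± 0.27 and Fabp4 had a difference of -1.91 ± 0.30.

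ABC transporters were mostly lower, 6 of the 7 listed of 50. Abca9 fell from 1570.1, 1075 and 824 to 149, 128 and 117, a log2 difference of -3.08 ± 0.25 (limma adjusted p = 2.66e-06), and Abca6 from 153, 119 and 67.9 to 3.01, 14 and 2.0. Both lie with Abca5, also listed as lower, on chromosome 11 between 110100749 and 110337723 (GRCm38.p6), and as paralogs they may share reads. The exception was Abcb1a, the drug pump P-glycoprotein, which rose from 124, 120.4 and 145 to 850.1, 528 and 748, by 2.42 ± 0.24. No member of this list changed sign under the median-ratio scaling.

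Enzymes of eicosanoids and cytochromes P450 had their largest changes downward. Of 34 eicosanoid genes 2 rose and 4 fell, of which 4 passed limma. Of 99 cytochrome P450 genes, tested or not, 2 rose and 4 fell (6.06% listed), of which 5 passed. Hpgd, the enzyme that inactivates prostaglandins, stood at 715, 276 and 209.8 in controls and at 23.6, 19.0 and 24.0 with IFNβ, a log2 difference of -3.91 ± 0.42 (limma adjusted p = 2.72e-05). Ptgs2, the cyclooxygenase that starts their synthesis, rose from 194, 250.2 and 161 to 500.1, 451 and 616, by 1.38 ± 0.24. Cysltr2, a receptor of cysteinyl leukotrienes, rose by 2.08 ± 0.37, but at 0.85 under the median-ratio scaling it did not pass. Cyp1b1, which oxidizes steroids and is a target of the aryl hydrocarbon receptor, fell from 369, 338 and 686 to 19.1, 15 and 48, a log2 difference of -4.14 ± 0.43.

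Transporters and channels were counted over all genes with such names, tested or not. Their listed shares are therefore not on the base of the 8.86% of tested genes, and whether they stand apart was not tested. Of 375 solute carriers 16 rose and 21 fell (9.87% listed; 32 passed limma), and of 209 ion channel genes 5 rose and 11 fell (7.66%; 13 passed). Under the median-ratio scaling 7 of the raised carriers and Clic4 changed sign. Slc25a22, the mitochondrial glutamate carrier whose promoter stretch is printed above, rose from 1539, 1214 and 1395 to 10422, 9417 and 8251, by 2.76 ± 0.16 (limma adjusted p = 1.1e-07). Slc7a8, a carrier of neutral amino acids, rose from 6083, 4499.9 and 5497 to 26321, 20268 and 21659, by 2.09 ± 0.18. Slc28a2, a nucleoside carrier, rose by 2.01 ± 0.19.

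The lowered carriers and channels included 2 pairs of neighbours. Slc26a11, a sulfate carrier, fell from 1120.2, 951 and 1048 to 199.8, 206 and 171, a log2 difference of -2.43 ± 0.20. Sgsh, a lysosomal sulfatase of heparan sulfate, fell from 849.9, 684 and 521 to 178, 132 and 224, a difference of -1.94 ± 0.26; the ends of these 2 genes overlap on chromosome 11, at 119355509 in GRCm38.p6, and without a stated strand setting their reads there cannot be told apart. Slc25a27 and Cyp39a1 are neighbours on chromosome 17 and had differences of -2.28 ± 0.31 and -1.89 ± 0.27. Kcnq3, a subunit of the potassium channels behind the M current, fell from 116, 127 and 118 to 3.04, 9.0 and 7.99, a log2 difference of -4.08 ± 0.42. Aqp3, a water and glycerol channel, had a difference of -3.42 ± 0.50.

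**Figure D3:**
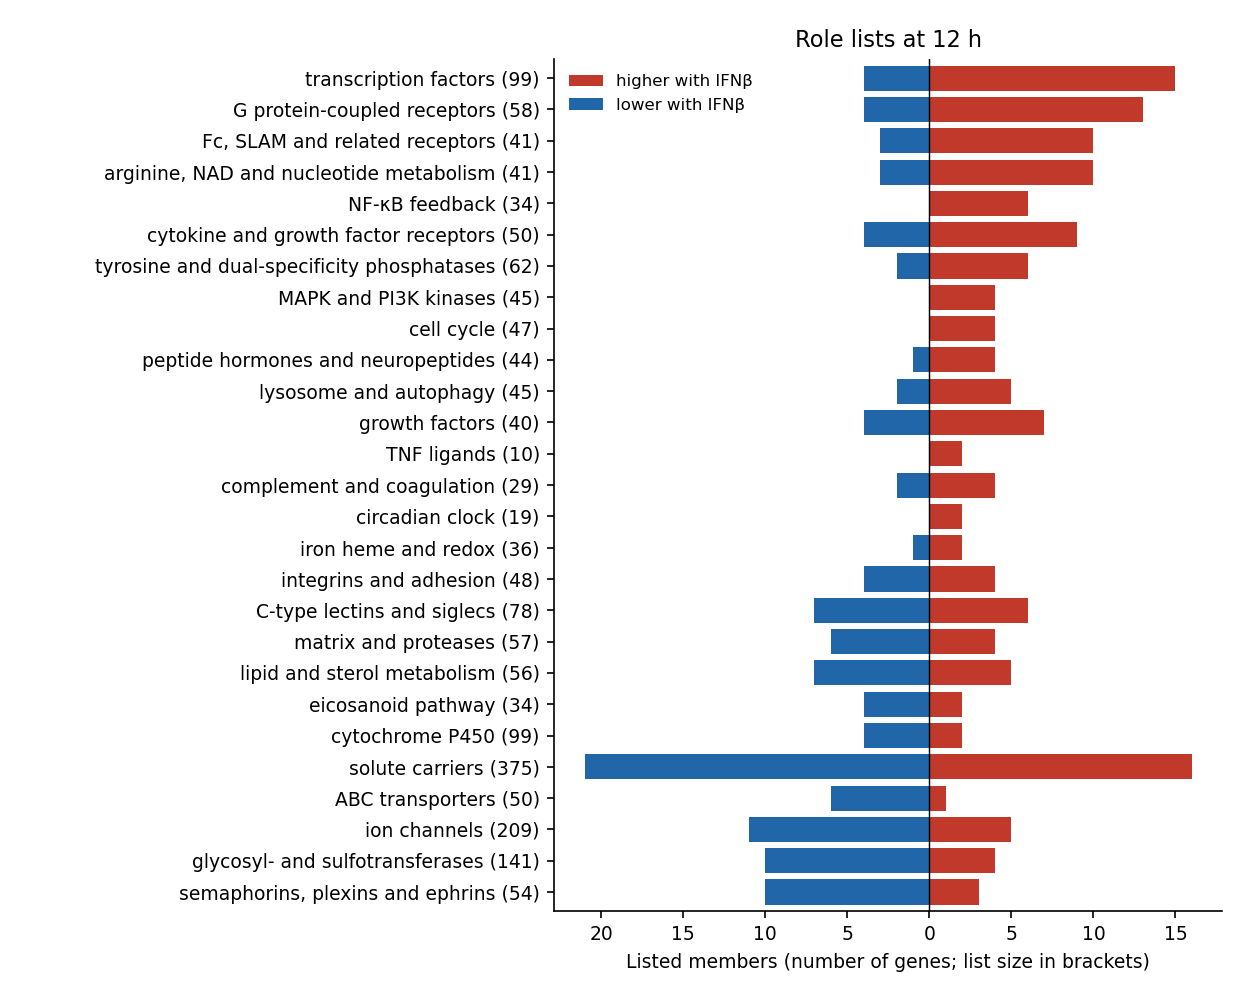
Number of genes outside the classic families that the authors listed as higher (red, right) or lower (blue, left) with IFNβ at 12 h in each role list shown, with the number of genes in the list in brackets. Transcription factors (15 against 4) and G protein-coupled receptors (13 against 4) lean to rises, as do all listed genes outside the families (58.9% higher). Guidance genes (3 against 10) and glycosyl- and sulfotransferases (4 against 10) lean to falls. Under the median-ratio scaling 7 of the 15 raised factors and 2 of the 13 raised receptors change sign.

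Transcription factors outside the IRF and STAT families rose more often than they fell, 15 against 4 of 99 (19.2% listed). All genes outside the classic families together leaned to rises too (58.9% higher). Of the 15 raised factors 7, Jun and Myc among them, changed sign under the median-ratio scaling. Limma passed 17, and Bhlhe41 and Tcf7l2 did not. Pou3f1, a POU factor known from glia and keratinocytes, stood at 4.99, 8.88 and 6.92 in controls and at 1042, 965 and 1034 with IFNβ, a difference of 7.03 ± 0.30 (limma adjusted p = 6.05e-09). Maf, a factor of macrophage differentiation, rose from 1213, 988 and 1446 to 13824, 11303 and 8215, by 3.18 ± 0.21. Ddit3 and Atf3, both of the stress response to misfolded proteins, rose by 1.85 ± 0.16 and 1.70 ± 0.17. Atf3, at 0.45 under the median-ratio scaling, did not pass there (limma adjusted p = 0.159). Epas1, which encodes the hypoxia factor HIF-2α, fell from 106, 108 and 124 to 11.4, 19.0 and 34.0, a log2 difference of -2.47 ± 0.40, and Rxra, the shared partner of nuclear receptors, had one of -1.38 ± 0.17.

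Signalling genes that were listed nearly all rose. Of 34 NF-κB feedback genes 6 rose, but 4 of them, Cflar, Nfkbib, Nfkbiz and Tnfaip3, changed sign under the median-ratio scaling. Traf1, an adaptor of TNF receptors, rose from 616, 629 and 689 to 2794, 2409.8 and 2073, by 1.90 ± 0.17. Of 45 MAPK and PI3K pathway kinases and adaptors outside the families 4 rose, Fyn and Pik3ap1 among them, and Fyn changed sign under that scaling. Pik3ap1, the adaptor that links Toll-like receptors to PI3K, rose from 5914, 5662 and 4803 to 44356, 31623 and 36674, by 2.77 ± 0.18 (limma adjusted p = 2.11e-07). Of 62 tyrosine and dual-specificity phosphatases 6 rose and 2 fell (12.9% listed). Dusp1, which switches off MAP kinases, rose by 1.61 ± 0.19. Under that scaling it was at 0.36 and did not pass (limma adjusted p = 0.709), and Dusp2 changed sign. Dusp22 had a difference of -1.23 ± 0.19.

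Of 47 cell cycle genes 4 were listed (8.51%), all of them higher: Ccnd1, Ccnd2, Cdkn1a and Plk2. None changed sign under the median-ratio scaling, but Cdkn1a, at 0.50, did not pass there (limma adjusted p = 0.21). Ccnd1, a D-type cyclin, rose from 99.8, 68.3 and 87.6 to 756, 776 and 1045, by 3.32 ± 0.24, and Cdkn1a, the inhibitor p21, from 5578, 5175 and 7401 to 22555, 21009 and 17359, by 1.76 ± 0.18. Plk2, a polo-like kinase whose promoter stretch is printed above, rose from 193, 186 and 230.0 to 2470.2, 1643 and 1781, by 3.25 ± 0.21 (limma adjusted p = 2.33e-07). Ccnd1 and Cdkn1a, an activator and an inhibitor of the cycle, were thus both listed as higher. The naming rule required that their groups do not overlap, and what the 4 genes mean for the cycle was not tested.

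Complement genes of the activating arms rose. Of 29 complement and coagulation genes 4 rose and 2 fell (20.7% listed), all past limma. C1ra changed sign under the median-ratio scaling and did not pass without IFNβ replicate 1 (1.03, limma adjusted p = 0.0526). Cfb, the protease of the alternative pathway, stood at 273, 246 and 162 in controls and at 28402, 18244 and 18469 with IFNβ, a difference of 6.58 ± 0.23 (limma adjusted p = 1.39e-09). C4b, of the classical pathway, rose from 35.9, 41.4 and 34.6 to 838, 797 and 733, by 4.37 ± 0.24. Pros1, an anticoagulant and ligand of TAM receptors, had a log2 difference of -1.30 ± 0.20.

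Iron, lysosome and glycosylation genes closed the lists. Of 36 iron, heme and redox genes 3 were listed (8.33%). Trf, transferrin, fell from 2329, 3203 and 4463 to 586, 967 and 683, a log2 difference of -2.14 ± 0.25. Cp, ceruloplasmin, rose by 1.31 ± 0.21, but at 0.064 under the median-ratio scaling it did not pass. Cybb, the NADPH oxidase subunit, had a difference of 1.03 ± 0.18 that was -0.22 under the median-ratio scaling. Of 45 lysosome and autophagy genes 5 rose and 2 fell, with Gla and Mcoln2 changing sign under that scaling, and Sqstm1, the autophagy receptor p62, rose by 1.36 ± 0.21. Of 141 glycosyl- and sulfotransferases 4 rose and 10 fell (9.93%; 12 passed limma), with 3 of the 4 rises changing sign. St6gal1, which caps glycans with α2,6-linked sialic acid, fell from 434, 439 and 413 to 67.1, 118 and 138, a log2 difference of -2.04 ± 0.29, whereas St3gal6, which adds α2,3-linked sialic acid, rose by 1.92 ± 0.37.

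Some listed genes lay side by side in the genome. Among the genes outside the families, 104 runs of neighbouring protein-coding genes moved in 1 direction, 224 genes in all, and 13 runs held 3 or more genes. How many runs a list of this size would give by position alone was not tested. On chromosome 10 between 128225810 and 128271250 (GRCm38.p6) Mip, Timeless, Apon and Apof all rose. Apof, a lipoprotein component also known as lipid transfer inhibitor protein, went from 5.99, 4.43 and 0.723 to 377, 346 and 298, and Timeless, of the replication fork, from 1043, 1301 and 950.0 to 5445, 4523 and 4316. The genes of a run can be paralogs or overlap, as with the Cd209, Abca and Sgsh groups above, and their values are then not independent.

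Levels at 24 h can be set beside these for genes that the authors also listed in their tables of 24 h against 12 h; those tables were normalized separately, share the 12 h libraries and are not compared by a test. Apoe went from 32159, 22171 and 35718 at 12 h to 63988, 56979 and 67578 at 24 h in controls, and from 7515, 5585 and 5585 to 13157, 15466 and 11319 with IFNβ, so that it rose in both and stayed lower with IFNβ in each library. Igf1 showed the same order, with means of 2287 and 7297 in controls and 381 and 1683 with IFNβ. Enpp1 reached 1500, 990 and 1669 in controls and 1063, 569 and 912 with IFNβ at 24 h, values that overlap in range. For Timp2 the 24 h values were 6274, 6204 and 7866 in controls and 3921, 3166 and 3266 with IFNβ.

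Some genes raised at 12 h came down by 24 h. Flt1 went from 3326, 3672 and 2979 at 12 h to 1891, 1255 and 1551 at 24 h with IFNβ, and from 278, 443 and 480 to 110, 83.2 and 91.9 in controls, so every IFNβ library stayed above the controls. Slc4a11, a bicarbonate transporter-related membrane protein, went from 506, 438 and 406 to 19.7, 62.5 and 76.3 with IFNβ and from 126, 85.1 and 88.3 to 37.4, 35.7 and 37.6 in controls, and its groups overlapped at 24 h. Cyp1b1 fell further with IFNβ, from 16.9, 13 and 43.6 to 1.62, 3.65 and 9.13, and in controls from 406, 381 and 775 to 160, 103 and 250.

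**Figure D4:**
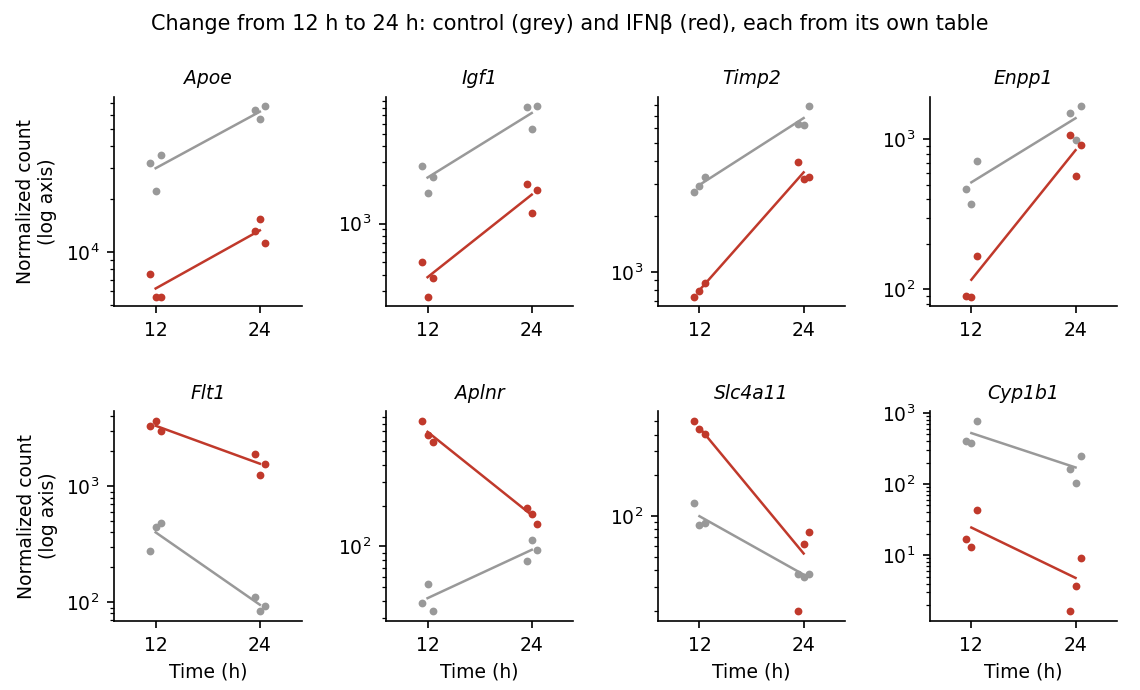
Normalized count (y axis, log, own range in each panel) of 8 genes at 12 h and 24 h in controls (grey) and with IFNβ (red), 3 libraries a group; lines join the means. Each colour comes from its own separately normalized table, and the red points of Apoe, Igf1, Timp2 and Cyp1b1 lie below the grey ones at both times, those of Flt1 and Aplnr above.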

How the data were processed

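RNA of 12 samples was sequenced in 4 groups of 3. Per the submitters' processing notes bcl2fastq, HISAT2 2.2.1 and edgeR 3.3.3 were used with GRCm38; how reads were counted, with which annotation, strand setting and filter, is not given in the sources used here. The authors deposited a table per comparison with values for 6 libraries, which are read from the values as a signal, normalized counts scaled to a common library size. Per the file headers the deposited tables also give each gene's log2 fold change with its raw and adjusted p-value. Whole reads could not be recovered and the depth is unknown.

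The planned test for counts gave way to another fit, since only normalized values of called genes are at hand. Calls and directions are the authors'. Limma 3.58.1 (R 4.3.3) was fitted to log2(value + 1) of all 1388 listed genes with a variance trend, and p-values were adjusted over 15661 genes, the number tested that follows from the deposited raw and adjusted p-values. The code was tested on simulated data. Same-numbered libraries deviated together from their group means (r across 1275 genes 0.347, 0.203 and 0.166, against -0.308 to 0.139 for different numbers), so the number is taken to pair them; genes are not independent replicates.

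Members and gene lists were chosen with earlier results of these data known. Classic families were left out by name, so members under other names can remain. Psme2b and the predicted gene Gm12185, for example, were counted outside. Named genes passed limma, did not overlap between groups, lay above the lowest 25% by level and carry no predicted name; of these, the 12 largest changes and the 12 highest levels in each direction, and up to 4 per list and direction by size, were taken (175 genes). Markers were looked up as lists. Arg1, Slc7a2, Pxk, Tfdp2, Timeless, Gch1, Dck, Ch25h, Cd209d and other members given with a count fall outside this rule and were chosen after their values were seen. No median is given for a list, since its unlisted members have no value. RefSeq symbols matched 1375 of the 1388 genes, 55 through a synonym. Alternatives were the replicate block, a pseudocount of 0.1, a mean of at least 10, no variance trend, a log2 fold change of at least 2, median-ratio scaling, each library left out, and a promoter window of 250 bases. Tables were handled in Python 3.11.15 (pandas 2.3.3, numpy 2.4.6) and plots drawn with matplotlib 3.10.9. Some items are not reported here.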

Additional observations from a re-analysis of the deposited data

Results flagged for a closer look

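Of 75 genes outside the classic families that the authors listed in both of their tables of 24 h against 12 h, 4 moved in opposite directions with and without IFNβ, and in each of them the 12 h and 24 h libraries did not overlap in either table. The difference was not tested, since the tables were normalized separately, and chance can give such cases. Aplnr, the apelin receptor, had a log2 fold change over time of 1.18 without IFNβ and -2.03 with it, from 839, 658 and 590 at 12 h to 190, 173 and 147 at 24 h with IFNβ and from 38.4, 53.5 and 33.3 to 78.6, 111 and 94 in controls. Gpr55, a receptor of lysophosphatidylinositol, had 1.76 and -1.36, at levels of 4.90 to 40.1. Hap1 had 5.23 and -1.15; it was listed at 0 in all 12 h controls and at 1.95, 6.48 and 5.21 at 24 h, so that 5.23 is no measured size and its direction without IFNβ rests on a few normalized counts. Lysmd2 had 1.58 and -1.85, at levels of 1.44 to 31.7. These fold changes are from the authors' deposited tables.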

How the results depend on the processing

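With the replicate number as a block, 1230 genes passed limma in place of 1209, of them 1024 outside the classic families in place of 1002 (642 higher and 382 lower); no call of the 175 named genes changed with the pairing. Requiring a log2 fold change of at least 2 left 544 genes, 385 outside the families (274 higher and 111 lower), which follows from the threshold. Under median-of-ratios scaling 208 genes outside the families passed as higher in place of 638, and 472 as lower in place of 364; this scaling assumes balanced rises and falls among the listed genes. Under it 15 named genes had differences below 0: B3gnt2 -0.047, B3gnt3 -0.019, C1ra -0.16, Clic4 -0.15, Cybb -0.22, Fyn -0.093, Itga5 -0.20, Lilr4b -0.22, Lilrb4a -0.24, Mcoln2 -0.17, Msr1 -0.23, Nfkbib -0.19, Plekho2 -0.25, St6galnac4 -0.19 and Tnfaip3 -0.17. Leaving out 1 library gave 983 to 1125 genes in all, 784 to 921 outside the families, 555 to 620 higher and 229 to 301 lower, with 8 to 19 named genes no longer passing; the lowest counts came without IFNβ replicate 1. Without a variance trend 14 named genes, and with a pseudocount of 0.1 a further count of 6, did not pass; a mean of at least 10 changed none of them. In the 250 bases before the start 6.39% of raised promoters held the interferon response element (2.98% of all promoters) and 6.24% the gamma-activated element (7.02% of all). With 3 libraries a group and depth unknown, differences of rarely read genes are the least certain.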
